A study of Homo sapiens with 8 samples.

Results

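The MYC, MAX and MXD network is the set of basic helix-loop-helix zipper transcription factors that share DNA sites with MYC. Its members were taken by gene symbol from a list of 10 (MYC, MYCN, MAX, MXD1, MXD3, MXD4, MXI1, MNT, MGA and MLX), each matched to the probe set that the platform annotation gives that symbol. Of these, 9 were measured, out of 17687 genes named on the array, and each had 1 probe set. The expression of MXD4 was not analysed here.

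The cells were CCRF-CEM, an established human line from T-cell acute lymphoblastic leukaemia (T-ALL), all held for 1 h in a gel of bovine type I collagen at 1.7 mg/mL. There were 4 arrays of cells that first received OICR-9429 at 1 µM for 1 h, and 4 arrays of cells that did not. The labels call the second group untreated and name no solvent given to it. OICR-9429 is a small molecule that occupies the pocket of WDR5 through which WDR5 meets MLL-family histone methyltransferases, and MYC is itself known to bind WDR5 at another surface. All arrays come from 1 cell line. The sample titles call the replicates biological and number them, without saying whether a number stands for a passage, a day or a flask, and p-values cover the variation among these 8 samples.

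MAX is the shared partner of the network. MYC or MYCN paired with MAX binds the E-box CACGTG and activates transcription, whereas MXD1, MXD3, MXD4, MXI1 or MNT paired with MAX binds the same letters and recruits the SIN3 and histone deacetylase corepressor. MGA, a very large protein with a T-box as well, joins MAX in a Polycomb complex (PRC1.6) that silences germ cell genes, and MLX pairs with MXD1, MXD4, MNT and the glucose-sensing Mondo proteins. In T-ALL, MYC is a main target of NOTCH1 and supports growth, ribosome production and nucleotide synthesis.

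The E-box letters were looked for in promoter windows of RefSeq (build GRCh38.p14), which run from 250 bases before to 50 bases after each annotated start of transcription. CACGTG reads the same on both strands. It occurred in 3 (MLX, MNT and MXD4) of the 9 members with a window here, which include MXD4 and not MYC, in 10.8% of 14250 measured genes with one, and in 19 of 38 genes on a list of genes activated by MYC. A second motif, CACGAG repeated after 5 free bases and read on either strand, is the double E-box through which MLX and Mondo proteins act on TXNIP, and it was found in 2 of the same 14250 genes (0.014%), TXNIP among them. A match describes the letters only. The stretches below are shown because MLX and MNT are the measured members with an E-box, TXNIP and ARRDC4 are the best known targets of MLX and differed in opposite directions at replicate number 4, and SRM and PRMT3 are targets of MYC with large differences between replicate numbers. Each is 100 bases long and lies before the start, is written 5′ to 3′ on the strand of the gene, and has the motif in capitals.
MLX, chr17:42567000-42567099, plus strand, motif starting 50 bases before the start of transcription: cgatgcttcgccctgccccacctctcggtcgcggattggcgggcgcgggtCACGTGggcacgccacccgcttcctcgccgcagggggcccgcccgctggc
MNT, chr17:2401204-2401303, minus strand, motif starting 193 bases before it: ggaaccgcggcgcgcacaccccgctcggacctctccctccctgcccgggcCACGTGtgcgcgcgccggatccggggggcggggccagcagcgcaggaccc
TXNIP, chr1:145996610-145996709, minus strand, motif starting 88 bases before it: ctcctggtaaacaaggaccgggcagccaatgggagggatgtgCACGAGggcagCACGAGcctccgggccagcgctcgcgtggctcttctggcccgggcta
ARRDC4, chr15:97960453-97960552, plus strand, motif starting 210 bases before it: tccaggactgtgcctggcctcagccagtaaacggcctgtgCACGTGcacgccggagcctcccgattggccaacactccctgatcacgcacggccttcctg
SRM, chr1:11060168-11060267, minus strand, motif starting 199 bases before it: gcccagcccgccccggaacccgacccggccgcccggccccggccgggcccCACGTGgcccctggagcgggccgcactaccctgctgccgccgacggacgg
PRMT3, chr11:20387479-20387578, plus strand, motif starting 187 bases before it: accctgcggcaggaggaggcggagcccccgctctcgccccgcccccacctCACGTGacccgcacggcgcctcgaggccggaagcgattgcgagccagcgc

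Values are log2 expression levels per probe set, normalized by the authors with RMA, and array medians lay between 6.38 and 6.46. The 2 arrays that share a replicate number, called a pair below, resembled each other more than arrays of the same treatment did: of the variance across all probe sets, 85.5% went with replicate number and 3.93% with treatment. Pair 4 stood furthest apart. Its upper quartiles were 8.12 with OICR-9429 and 8.08 without, against 8.29 to 8.40 on the other arrays. Its lower quartiles were 4.68 and 4.69, against 4.52 to 4.66, so values on these 2 arrays were less spread. The T lineage was present in every array, with CD3E, a chain of the T-cell receptor complex, between 11.61 and 11.97 with OICR-9429 and between 11.66 and 11.94 without. The mean level of 13 T lineage markers ran from 8.77 to 9.26 with OICR-9429 and from 8.83 to 9.29 in untreated cells. Markers of B cells (5 of 6 measured), myeloid cells (6 of 7), erythroid cells (5 of 7) and of fibroblasts and epithelium (7 of 8) had mean levels of 5.37 to 6.60 with OICR-9429 and of 5.39 to 6.73 without. Since RNA came from whole cultures, fewer cells expressing a gene and less RNA per cell cannot be told apart.

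All 9 measured members lay above the median of all probe sets on every array. Their means over the 8 arrays ran from 7.01 for MNT to 10.10 for MYC. For scale, 348 olfactory receptor genes, which a T cell does not use, had a 95th percentile of 4.82 and a highest mean of 6.51. Probe sets bind with different strength, so these levels do not rank the genes by amount of transcript. MYC, MAX and MGA were above the upper quartile on 8 of 8 arrays and MNT on 0 of 8.

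No member passed the test with OICR-9429. In limma fits to all 21448 probe sets, 0 of 9 members passed an adjusted p of 0.05, and so did 0 probe sets in all (0%). At an unadjusted p under 0.05 there were 0 members and 105 probe sets (0.49%). With the replicate block, a fit that compares the arrays within each pair, 0 members and 0 probe sets passed again, and 0 members and 1191 probe sets (5.55%) had an unadjusted p under 0.05. The adjusted p of every member was 1 without the block and lay between 0.848 (MXI1 and MNT) and 0.994 (MAX) with it. Of the 9 members 4 had a mean difference above 0 and 5 below it, with a median of -0.005, against 0.005 over all probe sets. Levels of the groups overlapped for all 9 members, and were apart for 0.737% of probe sets.

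Among the activators, MYC, which drives growth in T-ALL, had log2 levels of 10.49, 9.42, 10.23 and 10.14 with OICR-9429 in pairs 1 to 4, against 10.44, 9.72, 10.33 and 10.01 in untreated cells. Its differences within pairs were 0.05, -0.30, -0.10 and 0.13, so 2 pairs were higher and 2 lower. The mean difference was -0.055 ± 0.26 (SE). This SE, like those of the other OICR-9429 differences unless stated, is from the fit without the block, which leaves the spread between numbers in the error. With the replicate block the SE was 0.11 and the 95% interval ran from -0.31 to 0.20, at most a 1.24-fold difference in either direction. MYCN, a MYC relative best known from neuroblastoma, had levels of 8.30, 8.30, 7.86 and 8.54 with OICR-9429, against 7.95, 8.39, 7.84 and 8.56 without. Only pair 1 differed by more than 0.1, at 0.35, and the interval with the block was -0.19 to 0.32.

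MAX, the partner that every dimer of this kind but those of MLX needs, measured 10.07, 10.32, 9.98 and 9.71 in treated cells of pairs 1 to 4, against 10.09, 10.07, 9.99 and 9.95 in untreated cells. The treated arrays spread more (SD 0.25, n = 4) than the untreated ones (SD 0.066, n = 4), because treated pairs 2 and 4 lay on opposite sides. Pair differences were -0.02, 0.25, -0.01 and -0.24, and the mean difference was -0.005 ± 0.16 (SE), or ± 0.11 with the replicate block. MLX, the partner of the Mondo proteins, had levels of 9.23, 8.39, 8.67 and 9.44 with OICR-9429, against 9.26, 8.56, 8.85 and 9.38 without. In MLX no pair differed by more than 0.18, and 3 of 4 pairs were lower.

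Among the repressors, MXI1, which antagonises MYC and is also a known target of the hypoxia factor HIF1, was the only one higher with OICR-9429 in 4 of 4 pairs. It measured 8.33, 9.29, 9.04 and 9.28 with OICR-9429, against 8.29, 9.13, 8.84 and 9.09 without. The pair differences of 0.04, 0.16, 0.20 and 0.19 gave a mean of 0.15 ± 0.27 (SE), or ± 0.095 with the replicate block, whose 95% interval of -0.07 to 0.37 includes 0. MNT, the broadly expressed repressor that competes with MYC for MAX, was the only member lower in 4 of 4 pairs. Its levels were 7.14, 7.09, 6.93 and 6.55 with OICR-9429, against 7.23, 7.11, 7.07 and 6.96 without, and its pair differences were -0.09, -0.02, -0.14 and -0.41. Pair 4 held most of the MNT difference: the mean was -0.16 ± 0.17 (SE), and the interval with the block ran from -0.41 to 0.078. The 4 pairs went the same way in these 2 of 9 members, and in 12.6% of all probe sets.

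The other repressors went both ways. MXD3, a repressor seen mostly in dividing cells, had the widest pair differences of the network, at 0.14, -0.57, -0.40 and 0.04. Its levels were 7.86, 7.73, 7.70 and 8.98 with OICR-9429, against 7.72, 8.30, 8.10 and 8.94 without, and its mean difference was -0.20 ± 0.34 (SE), with a block interval of -0.52 to 0.12. MXD1, which rises when blood cells mature, measured 7.73, 8.98, 8.83 and 8.40 with OICR-9429, against 7.76, 8.67, 8.72 and 8.37 without. Pair 2 of MXD1 was higher by 0.31 and the other pairs lay between -0.03 and 0.11. MGA measured 8.82, 9.45, 9.09 and 9.01 with OICR-9429, against 8.85, 9.28, 9.04 and 8.72 without, and 3 of its 4 pairs were higher, by at most 0.29. Over all 9 members the widest block interval was that of MXD3, which reaches a 1.43-fold difference, while those of the others stayed within 1.33-fold.

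**Figure D1:**
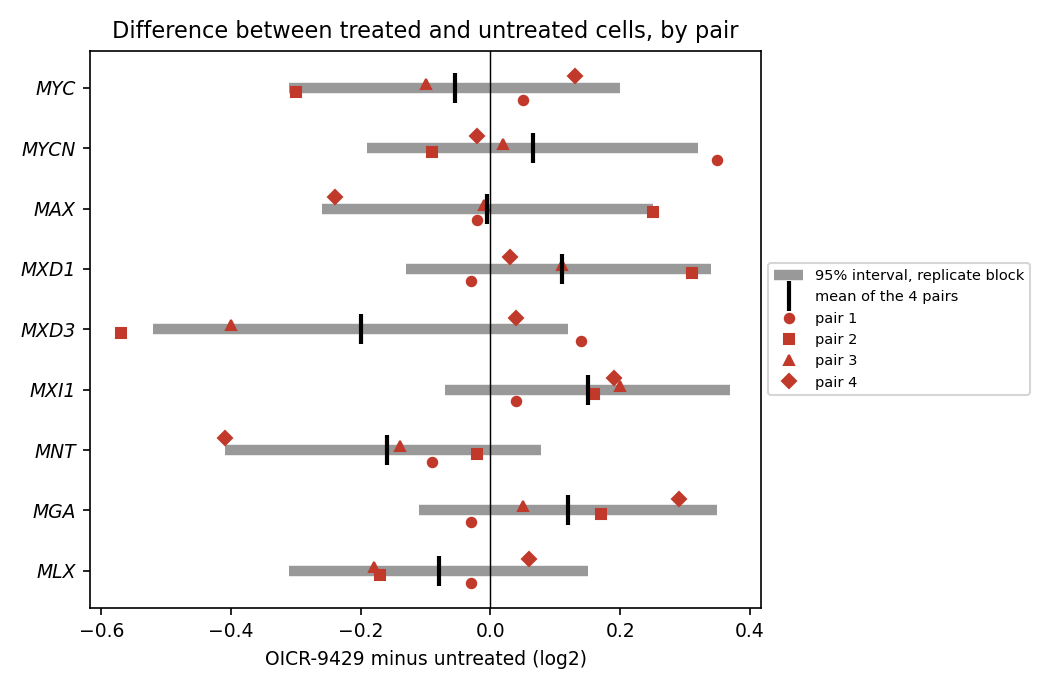
Difference between OICR-9429 and untreated cells for each member (log2), with a symbol for each of the 4 pairs, a black tick for their mean and a grey bar for the 95% interval of the fit with the replicate block. Every grey bar crosses 0, and only MXI1 and MNT have all 4 pairs on one side.

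The number means of a member spanned 0.37 (MAX) to 1.17 (MXD3) on the log2 scale, and the mean difference with OICR-9429 was at most 0.20 in size. These measures are unlike, since a span takes the highest and lowest of several means of 2 arrays each. The largest difference within a pair was 0.25 for MAX, 0.41 for MNT and 0.57 for MXD3, beside spans of 0.37, 0.43 and 1.17. In a limma model with number and treatment, 7 of 9 members passed the test of any difference between numbers, and so did 50.3% of all probe sets. Shares over all probe sets include those with low signal, whereas every member lay above the median. With low probe sets left out, 10774 of 16086 passed for any difference and 10388 of 16086 at number 4. MAX (adjusted p = 0.263) and MNT (adjusted p = 0.137) did not pass. The number held 93.7% of the variance of MYC, 97.1% for MLX, 96.4% for MXD1 and 95.3% for MXI1, against 67.9% for MNT and 70.3% for MAX. Each number has 2 arrays, which leaves 3 residual degrees of freedom in a probe set. The error comes from how far the arrays of a pair lie apart, and variation between independent cultures is not in it. What else differed between numbers, such as culture or array batch, cannot be told apart from number. Each number was also compared with the average of the remaining ones, and these comparisons share arrays. Members that passed were 1 higher and 2 lower at number 1 (all probe sets, 10.6% higher and 6.14% lower), 3 higher and 2 lower at number 2 (15.4% and 11.6%), 0 at number 3 (1.38%, of which 1.18% higher and 0.2% lower), and 4 higher and 1 lower at number 4 (51.8%, of which 26.3% higher and 25.5% lower). With low probe sets left out, 2720 of 16086 were higher and 1680 lower at number 1, and 3523 and 2819 at number 2. At number 3 these counts were 569 and 126, and at number 4 they were 4978 and 5410. The gene lists below are set against shares over all probe sets, which include those with low signal.

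**Figure D2:**
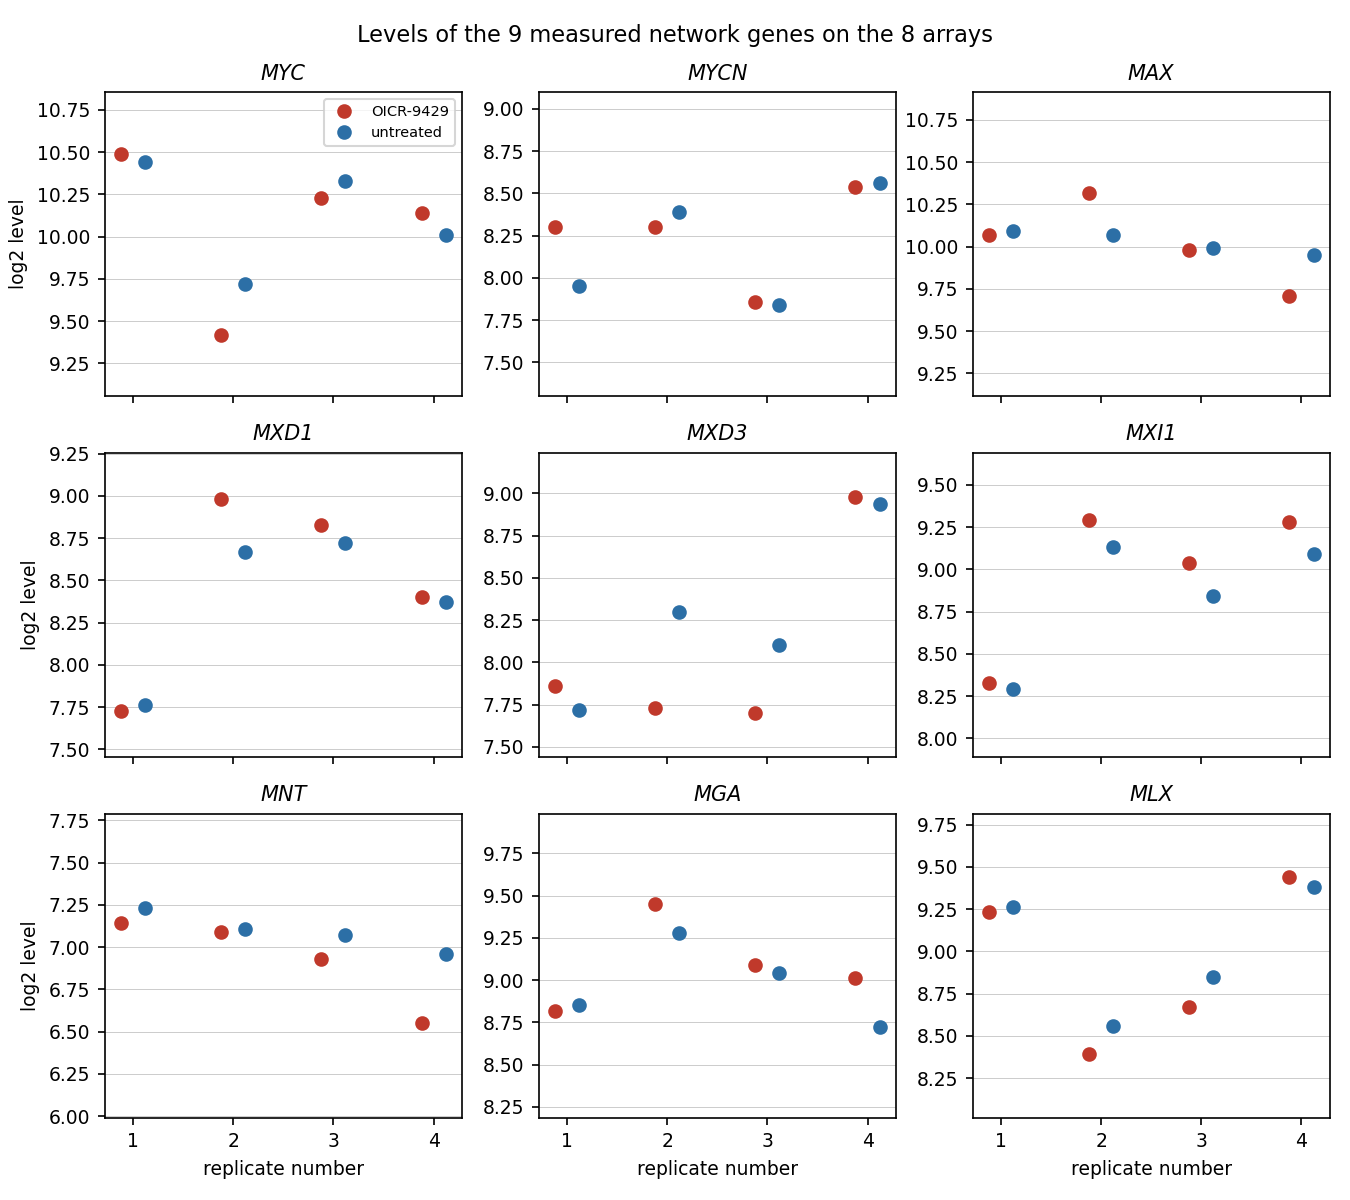
Log2 level of each measured member on the 8 arrays, by replicate number, with OICR-9429 in red and untreated in blue, and the same axis span of 1.8 in each panel. Treated and untreated arrays of a number lie within 0.41 of each other in every panel except MXD3 at number 2 (-0.57), while MYC is low at number 2, MXD1 and MXI1 are low at number 1, and MXD3 is high at number 4.

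MYC differed between numbers with an adjusted p of 0.00736 (limma). Both arrays of number 2 lay below the other 6 and both of number 1 above them, and the number means spanned 0.89, a 1.86-fold range. MYC was lower at number 2 than at the others by a log2 difference of -0.70 ± 0.13 (SE, adjusted p = 0.00551, limma). That call was lost without OICR replicate 2 (-0.54, adjusted p = 0.0955), as was the call for any difference (adjusted p = 0.0512, and 0.128 without pair 2). The difference of 0.49 ± 0.13 at number 1 (adjusted p = 0.034, limma) was lost with quantile normalization, without pair 2 and without OICR replicate 1, 2 or 3 or untreated replicate 1 or 3, with values of 0.29 to 0.56. MYCN ran differently: it was highest at number 4 (0.44 ± 0.13, adjusted p = 0.0189, limma) and lowest at number 3. Without pair 3, OICR replicate 4 or untreated replicate 4 the number 4 call was lost (0.32 to 0.50), and with quantile normalization it was 0.70. The call for any difference in MYCN (adjusted p = 0.0245) was lost without pair 3 or pair 4 or any 1 of their 4 arrays, at adjusted p up to 0.171.

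MXD1 and MXI1 were both low in pair 1. MXD1 averaged 7.75 there and 8.38 to 8.82 at the other numbers, a log2 difference of -0.92 ± 0.12 (SE, adjusted p = 0.00352, limma). MXI1 averaged 8.31 at number 1 and 8.94 to 9.21 at the others, a difference of -0.80 ± 0.11 (adjusted p = 0.00424, limma). For both genes the number 1 arrays lay below all other arrays, and the fit lost the call only where 1 of those 2 arrays was left out (differences of -1.01 to -0.73, adjusted p of 0.0651 to 0.0800). Without pair 1 the test of any difference was lost for both (adjusted p = 0.0833 for MXD1 and 0.241 for MXI1). At number 2 MXD1 was higher by 0.52 ± 0.12 (adjusted p = 0.0140) and MXI1 by 0.40 ± 0.11 (adjusted p = 0.0294, limma). Those calls were lost without pair 1 (0.24 and 0.15) and without OICR replicate 2 (0.39 each). For MXI1 the number 2 call was lost also with quantile normalization (0.32) and without OICR replicate 1 or 3 or untreated replicate 2 or 3 (0.37 to 0.41). A difference of 0.36 ± 0.11 in MXI1 at number 4 (adjusted p = 0.0231, limma) was 0.11 without pair 1, 0.56 without pair 2 and 0.63 with quantile normalization. The call was lost without pair 1 and also without OICR replicate 1, 3 or 4 or untreated replicate 3 or 4.

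MXD3 was set apart by pair 4. It averaged 8.96 at number 4 and 7.79 to 8.02 at the others, a difference of 1.06 ± 0.16 (SE, adjusted p = 0.000957, limma) or 2.08-fold, and the call held in 16 of 16 alternatives. Without pair 4 the test of any difference gave an adjusted p of 0.671. MLX was likewise highest at number 4, by 0.58 ± 0.11 (adjusted p = 0.00332, limma), which held in 16 of 16 alternatives, and it was lowest at number 2, by -0.66 ± 0.11 (adjusted p = 0.00483, limma), which was lost without OICR replicate 2 (-0.60, adjusted p = 0.0744). MGA was highest at number 2 (0.44 ± 0.12, adjusted p = 0.0256, limma). That call was lost without pair 1 or 4, OICR replicate 1, 2 or 3 or untreated replicate 2 or 3, with values of 0.40 to 0.48. The MGA call for any difference (adjusted p = 0.0430) was lost in 11 of 17 alternatives, among them the centring of arrays on their medians (adjusted p = 0.065) and the removal of any pair but pair 3 or of any array but OICR replicate 4. MNT was lower at number 4 by -0.34 ± 0.12 (adjusted p = 0.0462, limma), a call lost in 12 of 16 alternatives. It was lost without each pair other than pair 4 and without each array other than untreated replicates 2 and 4, with quantile normalization (-0.24) and with a variance trend, and the value was -0.18 without OICR replicate 4.

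Activators were then set against repressors on each array. Every gene was centred on its own mean over the 8 arrays, so that no gene's level is compared with another's, and the mean of MXD1, MXD3, MXI1, MNT and MGA was taken from the mean of MYC and MYCN. The resulting balance was 0.57, -0.50, -0.12 and 0.049 with OICR-9429 in pairs 1 to 4, against 0.38, -0.29, -0.12 and 0.022 in untreated cells. It was highest in pair 1 and lowest in pair 2 in both groups. In pair 1 the repressors averaged -0.33 with OICR-9429 and -0.34 without, and in pair 2 they averaged 0.20 and 0.19. Treated minus untreated, the balance differed by 0.19, -0.20, -0.004 and 0.027 in pairs 1 to 4, a mean of 0.003 with an SD of 0.16 (n = 4), so the pairs went both ways. With MYC alone against MXD1, MXD3 and MXI1, the number means were 0.92, -0.71, 0.15 and -0.36 for numbers 1 to 4, against 0.47, -0.39, -0.12 and 0.035 by the full definition, and numbers 3 and 4 changed sign. No test was made on this score.

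**Figure D3:**
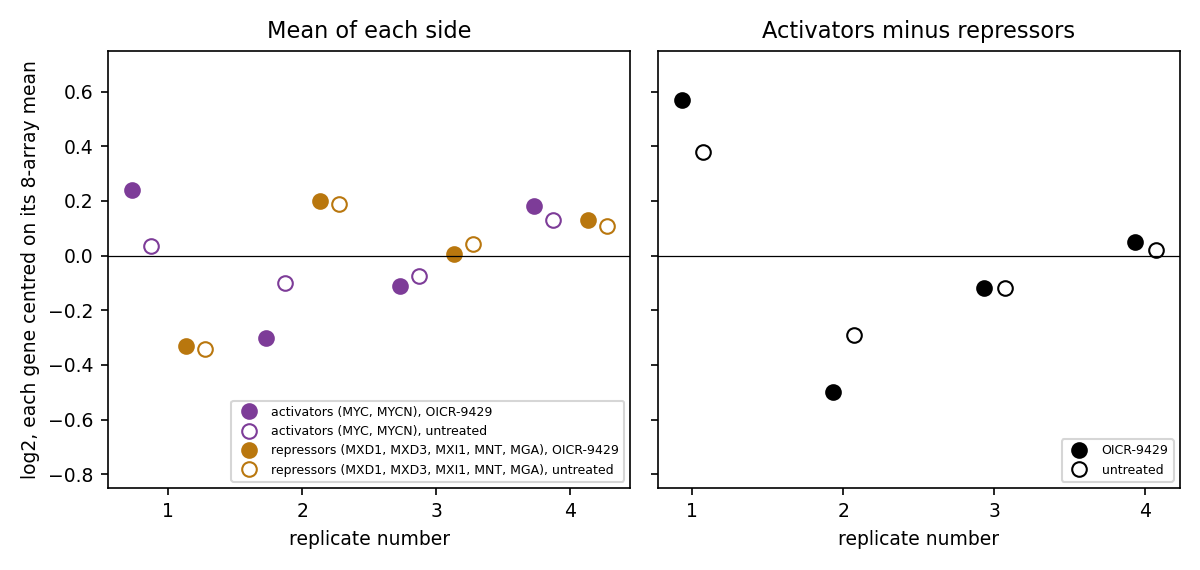
Left, mean of the activators and of the repressors on each array (log2, each gene centred on its mean over 8 arrays). Right, activators minus repressors. Filled points are OICR-9429 and open points untreated; the balance is above 0.3 in both arrays of number 1 and below -0.2 in both arrays of number 2.

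The genes that MYC is known to activate differed between replicate numbers, and 0 of 48 measured (of 60 listed) passed for OICR-9429, with a median difference of 0.013 against 0.005 over all probe sets. At number 1, 27 of 48 were higher and 2 lower, with a median log2 difference of 0.51, where all probe sets had 10.6% higher, 6.14% lower and a median of -0.03. SRM, which makes the polyamine spermidine, measured 10.84, 8.49, 9.99 and 9.15 with OICR-9429 in pairs 1 to 4, against 10.97, 8.71, 9.88 and 9.41 without, and was higher at number 1 by 1.63 ± 0.12 (SE, adjusted p = 0.000559, limma). MYBBP1A, a nucleolar MYB-binding protein, was higher there by 1.51 and CAD, which starts pyrimidine synthesis, by 1.44. The number of higher genes fell to 5 without OICR replicate 1 and to 3 without untreated replicate 1, with medians of 0.47 and 0.50.

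At number 4 the same list went the other way, with 28 of 48 lower and 6 higher and a median of -0.50, where all probe sets had 25.5% lower, 26.3% higher and a median of 0.0833. The pair 4 arrays had the lowest upper quartiles, and the mean level of this list (9.06 to 9.85) lay above the upper quartile of every array. How much this adds to the difference was not tested. With quantile normalization 5996 probe sets were higher and 4866 lower at number 4, against 5637 and 5471 without it. PRMT3, a methyltransferase of ribosomal proteins, measured 8.83, 8.18, 8.67 and 6.48 with OICR-9429, against 8.99, 8.0, 8.48 and 6.57 without, and was lower at number 4 by a log2 difference of -2.0 ± 0.12 (SE, adjusted p = 3.54e-05, limma). NOP58, a core protein of box C/D snoRNPs, and UTP20, of the small-subunit processome, differed by -1.55 and -2.34. MYC itself was not among the genes that passed at number 4 (-0.03 ± 0.13, adjusted p = 0.858). Without pair 1, whose arrays belong to the comparison, the median was -0.28 and 20 genes were lower. The count of 6 higher genes was 2 or 3 without pair 2, OICR replicate 3 or 4 or untreated replicate 4. At number 2, where MYC was lowest, 15 were lower and 3 higher (median -0.19), with SRM at -1.44, MRTO4, a ribosome assembly factor, at -1.17 and FKBP4, a chaperone partner, at -0.96. The number 2 count was 10 lower and 10 higher without pair 1, 5 lower without OICR replicate 2, 8 lower without untreated replicate 2, and 22 lower without pair 4 (median -0.41). Number 3 had 2 higher and 0 lower, but 17 higher without pair 1, 8 without pair 2 and 16 (with 5 lower) with a variance trend and robust variance, and 0 without pair 4 or any 1 array of pairs 1 to 3.

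Genes that MYC is known to repress had the opposite signs at numbers 1 and 4. Of 20 measured (of 25 listed), 8 were lower and 0 higher at number 1 (median -0.41), and 10 were higher and 0 lower at number 4 (median 0.39), while 0 passed for OICR-9429 (median -0.016). Over all probe sets, 6.14% were lower and 10.6% higher at number 1, and 26.3% higher and 25.5% lower at number 4, so the share of the list that passed at number 4 was near the 51.8% of all probe sets and those that passed lay on one side. At number 2, 5 were higher and 2 lower (all probe sets, 15.4% and 11.6%), with 0 of either without OICR replicate 2, 2 and 2 with quantile normalization, and 1 higher and 4 lower without pair 1. NDRG1, a growth-restraining gene that hypoxia also induces, measured 7.75, 8.90, 9.23 and 10.28 with OICR-9429 in pairs 1 to 4, against 7.78, 9.25, 8.97 and 10.35 without. It was lower at number 1 by a log2 difference of -1.73 ± 0.14 (SE, adjusted p = 0.000728, limma). CCNG2, a cyclin of cells leaving the cycle, and the zinc finger gene KLF6 stood at -1.35 and -1.12 at number 1, and ITGAL, the alpha chain of the integrin LFA-1, at 1.48 at number 4. The count of 8 at number 1 was 2 without OICR replicate 1 and 3 without untreated replicate 1, and the median there was -0.27 without pair 4. Markers of the T lineage and of other cells differed at these numbers as well. Of 13 T lineage markers, 6 were higher and 3 lower at number 4 (median 0.19), and 2 higher and 2 lower at number 1 (median -0.01). At number 4, where 51.8% of all probe sets passed, higher and lower calls numbered 3 and 0 among 6 myeloid markers (median 0.29), while 3 of 5 erythroid markers were higher and 1 lower (0.88), 1 of 5 B-cell markers higher and 1 lower (0.20), and 2 of 7 fibroblast and epithelial markers higher and 1 lower (0.21). At number 1, where 16.7% of all probe sets passed, 2 of 6 myeloid and 2 of 5 erythroid markers were lower (medians -0.42 and -0.26), 0 of 5 B-cell markers passed, and 1 of 7 fibroblast and epithelial markers was higher. The part of these markers in the results was not tested. COL1A2 and PDGFRB are on both the fibroblast and epithelial list and the list of genes repressed by MYC. COL1A2 passed at number 4 (0.39) and counts in both, so the 2 lists are not separate evidence there.

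**Figure D4:**
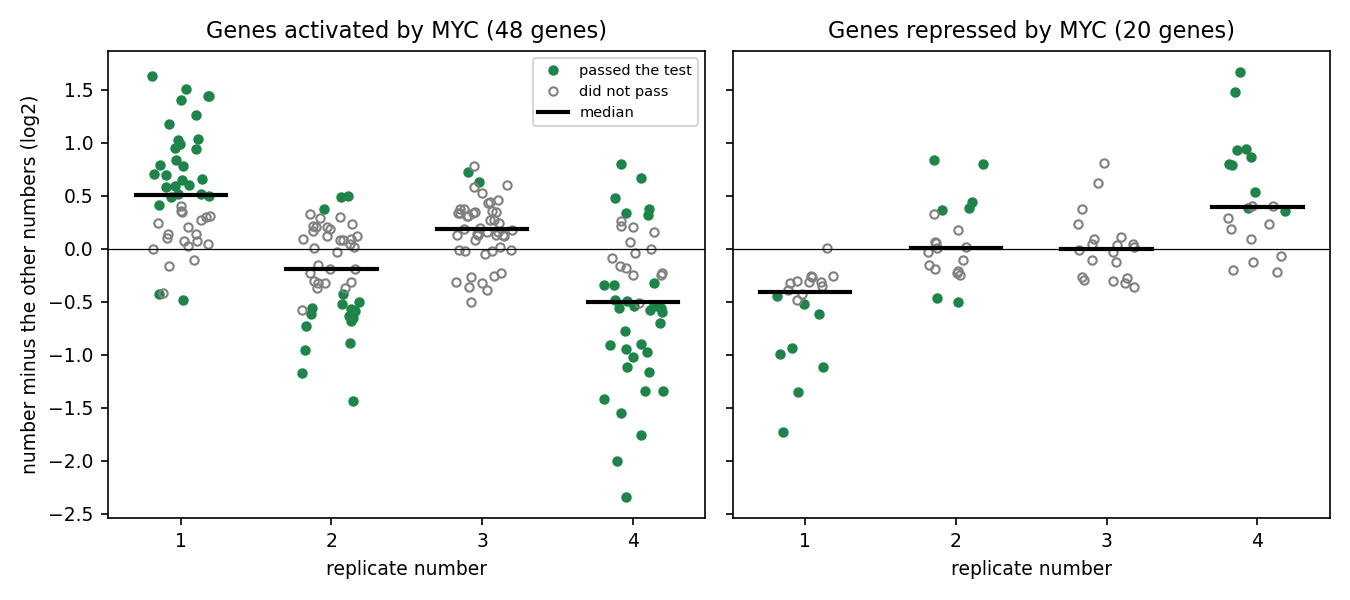
Log2 difference of each replicate number from the mean of the other numbers, for genes activated (left) and repressed (right) by MYC, 1 point a gene, green where limma's adjusted p was under 0.05, with a black bar at the median. The activated genes have medians of 0.51 at number 1 and -0.50 at number 4, and the repressed genes -0.41 and 0.39.

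Among the targets of MLX, TXNIP, PFKFB3, KLF10 and HBP1 were lower at number 1 and higher at number 4. ARRDC4 went the other way at number 4, and ARRDC3 passed at neither number. TXNIP, an inhibitor of glucose uptake, measured 9.07, 9.72, 10.63 and 11.24 with OICR-9429 in pairs 1 to 4, against 8.96, 10.10, 10.70 and 11.22 without. It was lower at number 1 by -1.59 ± 0.13 and higher at number 4 by 1.37 ± 0.13 (SE, adjusted p = 0.000813 and 0.000114, limma). PFKFB3, an activator of glycolysis, differed by -1.31 at number 1 and by 1.33 at number 4. ARRDC4, the arrestin relative of TXNIP, measured 6.20, 6.62, 6.55 and 5.65 with OICR-9429, against 6.18, 6.35, 6.29 and 5.64 without, and was lower at number 4 (-0.72 ± 0.12, adjusted p = 0.00140, limma). Of the 8 genes on the Mondo and MLX list, 4 were lower and 0 higher at number 1, and 4 were higher and 2 lower at number 4. The list holds the Mondo proteins MLXIP and MLXIPL beside the targets, and the genes lower at number 4 were ARRDC4 and MLXIP. HBP1 is also on the list of genes repressed by MYC. All probe sets had 6.14% lower and 10.6% higher at number 1, and 26.3% higher and 25.5% lower at number 4. At number 2, 2 of the 8 were higher and 1 lower (all probe sets, 15.4% and 11.6%), and with arrays centred on their medians or a variance trend 1 was higher and 2 lower. The count at number 1 was 2 without either of its arrays. At number 4 the count of higher genes was 2 without pair 1, OICR replicate 1, 2, 3 or 4 or untreated replicate 3 or 4. MLXIP, which encodes the Mondo protein that pairs with MLX in most tissues, was lower at number 4 (-0.62 ± 0.15, adjusted p = 0.00782, limma).

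Cofactors gave 0 calls for OICR-9429 in each of 3 lists. Of 29 MYC cofactors and regulators of MYC protein, 15 were lower and 7 higher at number 4, where all probe sets had 25.5% lower and 26.3% higher. HUWE1, a ubiquitin ligase of MYC, stood there at -1.46 ± 0.12, CIP2A, which protects MYC from a phosphatase, at -1.82 ± 0.15 and the acetyltransferase KAT2A at -1.17 ± 0.11 (SE). The count of 7 higher was 4 without untreated replicate 4, and quantile normalization gave 12 lower and 9 higher. At number 1, 9 of the 29 were higher and 0 lower, with RUVBL1, a helicase partner of MYC, at 0.99 ± 0.12; 4 were higher without pair 4, and 0 without either array of number 1. Of 17 members of the SIN3 corepressor, 7 were lower and 1 higher at number 4, with ARID4B at -1.50 and RBBP7 at -0.89, and 0 passed at number 1. The 8 that passed at number 4 are 47.1% of the list, below the 51.8% of all probe sets. For SIN3 at number 4, quantile normalization gave 5 lower and 2 higher. PRC1.6, the complex of MGA, had 8 of 14 lower and 2 higher at number 4, among them CBX3 (-0.89) and TFDP1 (-0.87), and 5 lower with quantile normalization or without untreated replicate 4. HDAC2 (-0.77 at number 4) is on both the SIN3 and the PRC1.6 list and counts in both. The PRC1.6 list also holds the member MGA itself, which did not pass at number 4 and was higher at number 2. At number 2, where all probe sets had 15.4% higher and 11.6% lower, 5 MYC cofactors were higher and 7 lower, 4 SIN3 members higher and 1 lower, and 2 PRC1.6 members higher and 5 lower. Without OICR replicate 2 these were 0 and 2, 1 and 0, and 0 and 1. For SIN3 at number 2, quantile normalization gave 2 higher and 3 lower, and centring arrays on their medians 3 and 3.

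The germ cell genes that MGA and PRC1.6 silence differed widely in level. Gene by gene, 11 of 16 had a mean over the 8 arrays at or below the 95th percentile of olfactory receptor genes (4.82), and 5 lay above it: TEX101 (4.85), TDRD9 (5.52), STAG3 (6.61), SYCE2 (7.42) and TDRKH (8.02), the last 3 also above the highest olfactory receptor mean. TDRKH, a Tudor-domain protein of the piRNA pathway, ran from 7.70 to 8.29 with OICR-9429 and from 7.53 to 8.17 in untreated cells. TDRD9, a helicase of the same pathway, measured 5.91, 6.38, 5.88 and 4.37 with OICR-9429 in pairs 1 to 4, against 5.68, 5.91, 5.82 and 4.24 without, and was lower at number 4 (-1.62 ± 0.12, adjusted p = 4.88e-05, limma). At number 4, 4 of the 16 were lower and 1 higher (all probe sets, 25.5% and 26.3%), and without OICR or untreated replicate 4 there were 2 lower. None passed for OICR-9429 (limma, 0 of 16, and 0 at an unadjusted p under 0.05, or 1 with the replicate block). TEX11, a meiosis gene, had the smallest p of the 16, at 3.02, 3.01, 2.97 and 2.98 with OICR-9429, against 2.78, 2.78, 2.54 and 2.74 without (log2 difference 0.28 ± 0.14 SE, adjusted p = 1, limma). Its groups did not overlap, as was so for 0.737% of all probe sets, and its mean of 2.85 lay below the 5th percentile of olfactory receptor genes (2.87). Of the 20 measured factors that control MYC transcription in T-ALL, 10 were lower and 2 higher at number 4 (all probe sets, 25.5% and 26.3%), with SMARCA4 at -1.49 ± 0.13 (SE); the 2 became 6 (with 8 lower) with quantile normalization, 4 with a variance trend and robust variance, 5 without pair 2, 1 without pair 3 or untreated replicate 4, and 0 without OICR replicate 4. At number 1, 2 of these 20 factors were higher and 3 lower (all probe sets, 10.6% and 6.14%). RBPJ, the DNA-binding partner of NOTCH, was lower there by -1.0 ± 0.13 (adjusted p = 0.00343, limma). SMARCA4 and BCL11B were higher there, by 0.87 ± 0.13 and 0.58 ± 0.11. That list had 0 genes past the threshold for OICR-9429.

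Genes were also ranked by how closely their centred levels followed a member over the 8 arrays, as the root mean square difference on the log2 scale among 9279 other genes above the median level. Closest to MYC, whose own levels varied by a root mean square of 0.35, were DFFA (0.0719), the inhibitor of a nuclease of apoptosis, NUDC (0.073), a mitotic factor, MEN1 (0.0867), which encodes menin, EMD (0.0891), which encodes emerin, and TIMM50 (0.0908), of the mitochondrial import machinery. MAX, with 0.16 of its own, was followed by FOXP1 (0.05), EYA3, ZMYND8, BTN2A1 and SAP30L (0.074), the last a SIN3 corepressor subunit. MXI1, with 0.37 of its own, was followed by OPTN (0.0876), ARHGEF7, IFNGR2, CAMK1D and SERINC5 (0.117). The 8 arrays form 4 pairs, so few independent points lie behind these likenesses.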

How the data were processed

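The authors deposited log2 expression values for 21448 probe sets on 8 Affymetrix arrays. The values come from RMA in the Transcriptome Analysis Console, per the submitters' processing notes. Tool versions and genome build: not given in the sources used here. Scanner files were not used, and signal over background was not examined. Precision is limited by how few arrays there are.

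The platform annotation gave gene symbols, updated through Entrez ID in a RefSeq table of GRCh38.p14, to 17709 probe sets (1 symbol each), left 3739 unnamed here and gave 0 several. Where a gene had several probe sets the highest mean was kept, which touched no member.

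Groups were compared with limma 3.58.1 (R 4.3.3), lmFit and eBayes, two-sided, with Benjamini-Hochberg adjustment over all probe sets and a threshold of 0.05. The main fit for OICR-9429 has no covariate. Deviations from group means correlated between same-numbered arrays at 0.696, 0.748, 0.566 and 0.865, above the limit of 0.1 for every number, so the replicate numbers of the sample titles pair the arrays and a replicate block was run beside it. Numbers were compared in a model with number and treatment. The fits were tested on simulated data.

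The members, lists and tests were chosen with earlier results of these data known. Named genes are the members, the 3 genes of each list with the smallest p in a comparison, and the 5 most alike MYC, MAX and MXI1, and a few others (CD3E, MLXIP, TEX101, STAG3 and SYCE2 among them) were chosen after their values were seen. Alternatives were other scalings, a variance trend, a filter on low probe sets, the block, and leaving out arrays or pairs. The expression of MXD4 was not analysed here.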

Additional observations from a re-analysis of the deposited data

Results flagged for a closer look

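In 20 groups of 4 arrays (9 members and the balance of activators against repressors, each with OICR-9429 and untreated), 1 stood out for a single distant array. Chance alone would give about 1 in 20 if the groups were independent. They are not, since same-numbered arrays resemble each other and the balance is made from the members. It was MXD3 with OICR-9429, where replicate 4 measured 8.98 and the other treated arrays 7.70 to 7.86. The untreated array of the same number measured 8.94.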

How the results depend on the processing

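The count of probe sets past the threshold for OICR-9429 was 0 in every setting run (other scalings, variance trend, low filter, replicate block, each array or pair left out), and 0 members passed in any. The replicate block gave 0 calls as well and changed no other call on the treatment, and it raised the count at an unadjusted p under 0.05 to 1191, against 105. Leaving out arrays or pairs moved the members' OICR-9429 differences across 0 for MYC (-0.19 to 0.16, and 0.027 with the block and without pair 2), MYCN (-0.05 to 0.20, and -0.03 with the block and without pair 1), MAX (-0.10 to 0.098, and 0.073 with the block and without pair 4), MXD1 (-0.10 to 0.36), MXD3 (-0.50 to 0.028), MXI1 (-0.035 to 0.37) and MLX (-0.25 to 0.10), and not for MNT or MGA; centring arrays on their medians gave MAX 0.02. The balance difference ran from -0.19 to 0.17 when arrays or pairs were left out. It was -0.073 with MYC alone against MXD1, MXD3 and MXI1 (planned with MXD4 too), and -0.057 with MYC alone against the 5 repressors, a definition chosen after seeing the data; quantile normalization was not run for it. Counts of probe sets that differ between numbers ran, with arrays or pairs left out, from 2979 to 10394 for any number, 134 to 5489 for number 1, 1253 to 6332 for number 2, 16 to 2783 for number 3 and 8597 to 11049 for number 4. For number 3 they were 2136 with a variance trend and robust variance, 695 with the filter on low probe sets and 516 without the treatment term, against 297; the cause was not tested. Of the 13 member calls at single numbers, 158 of 208 alternatives kept the call, 50 lost it and 0 reversed it. Other probe sets of a member could not be tried, since each has 1. With 4 arrays a group and 2 a number, small differences were not detectable.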
